A study of Mus musculus with 12 samples.

Results

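The granzymes and perforin are the cargo with which CD8+ T cells kill. They were followed here as 10 genes chosen by name, Gzma, Gzmb, Gzmc, Gzmd, Gzme, Gzmf, Gzmg, Gzmk, Gzmm and Prf1, out of 52636 genes in the count table. All 10 were found under their symbol, each with 1 gene identifier, and all 10 passed the filter on low counts, which 14173 genes passed. The cells were CD8+ T cells sorted from AT-3 ova mammary tumors of A2AR eGFP reporter mice, which carry a bacterial artificial chromosome transgene that places eGFP under the control of Adora2a, the gene of the adenosine receptor A2AR, on a C57BL/6 background. The mice were female, 6 to 16 weeks old and had received 500000 tumor cells. The 4 conditions had 3 libraries each: GFP+ and GFP− cells of non-treated mice (GFP+ libraries KT13, KT15 and KT17, GFP− libraries KT14, KT16 and KT18) and GFP+ and GFP− cells of mice given anti-PD-L1 on days 14 and 18 (GFP+ libraries KT19, KT21 and KT23, GFP− libraries KT20, KT22 and KT24). Tumors were taken on day 21, and each library pooled the cells of 3 mice, so that GFP reports a transgene in pools of animals and not the receptor protein in a single cell. The question was which of the 10 genes differ with GFP, which with anti-PD-L1, and which with both.

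Granzymes are serine proteases that are stored in cytotoxic granules together with perforin, the pore-forming protein encoded by Prf1. When a killer cell meets its target, the granules fuse with the membrane at the contact, perforin opens the target membrane and granzymes enter. Granzyme B cleaves after aspartate and starts caspase-dependent death, granzyme A has trypsin-like activity, granzyme K is a close relative of granzyme A, and granzyme M cleaves after methionine or leucine. Mice carry in addition Gzmc, Gzmd, Gzme, Gzmf and Gzmg next to Gzmb, a group that strongly activated mouse T cells and NK cells switch on.

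The genes lie on 3 chromosomes of the mm10 genome. Gzmb (chr14:56258838-56262260), Gzmc (chr14:56231441-56234656), Gzmf (chr14:56205263-56211417), Gzmg (chr14:56156582-56159579), Gzmd (chr14:56129556-56132608) and Gzme (chr14:56117626-56120625) stand in this order on the minus strand. Gzma (chr13:113093825-113100981) and Gzmk (chr13:113171608-113225908) are neighbors, also on the minus strand. Prf1 (chr10:61297833-61304680) and Gzmm (chr10:79689020-79695261) are on the plus strand of chromosome 10. The libraries were made by 3′ sequencing, in which each transcript yields reads near its 3′ end, so normalized levels, in CPM (counts scaled to a common library size), were not divided by transcript length. Near-identical 3′ ends therefore decide which members can be told apart. Of the 226 windows of 75 bases in the last 300 bases of each transcript, 164 of Gzmd, 176 of Gzme, 121 of Gzmf and 116 of Gzmg lay within 5 mismatches of another gene of the family, and 14 windows of Gzmg were shared exactly. The closest windows of Gzma, Gzmb, Gzmc, Gzmk, Gzmm and Prf1 had at least 10 mismatches. Values of Gzmd, Gzme, Gzmf and Gzmg are therefore uncertain as to which of these genes a read came from, and how the counting treated such reads was not given in the sources used here.

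The check of the sort held in every library. Adora2a was at 60.2 to 111 CPM in the 6 GFP+ libraries and at 19.7 to 34.6 CPM in the 6 GFP− libraries. Library totals ran from 11292699 to 19023900 counts, and no 2 libraries of a group agreed within sampling noise. KT13 and KT21, both GFP+, stood apart: their median rank correlation with the other libraries was 0.941 and 0.935, against 0.967 to 0.977 for the remaining 10. Results are given with all 12 libraries and again without KT13 and KT21. Markers of other cells moved as well. The CD8 T cell markers were all present, with a summed level of 4610 to 5020 CPM in the GFP+ and 5540 to 5700 CPM in the GFP− libraries of non-treated mice, and 5510 to 7230 and 6160 to 6560 CPM after anti-PD-L1. The 7 NK and innate-like markers summed to 217 to 270 CPM in GFP+ and 140 to 186 CPM in GFP− libraries, with Fcer1g, Klrb1c and Tyrobp higher in GFP+ cells by edgeR (adjusted p = 0.0102, 0.00406 and 0.0174). Klri2 of the same list went the other way, at 29.1 to 56.7 CPM in GFP+ and 48 to 83 CPM in GFP− libraries and below GFP− under each treatment (log2 fold change −0.62, adjusted p = 0.0562, and −0.51, adjusted p = 0.0151, without KT13 and KT21). The 9 macrophage markers summed to 129 to 234 CPM in non-treated and 68.9 to 145 CPM after anti-PD-L1, with C1qa and Lyz2 lower (adjusted p = 0.0317 and 0.0461), and the 7 tumor and stroma markers to 23.8 to 78.5 and 8.27 to 32.2 CPM. The 5 B cell markers summed to 71.2 to 172 CPM and were highest in non-treated GFP+ libraries (145 to 172 CPM), and the 4 CD4 T cell markers to 15.6 to 35 CPM. The 6 mast cell and basophil markers summed to 8.64 to 25.8 CPM. Among them Kit was at 7.81 to 25.8 CPM, and Fcer1a and Tpsb2 were at 0 in all 12 libraries. The part of these markers in the results below was not tested, and in bulk samples fewer cells of a type and less RNA per cell cannot be told apart.

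The 10 genes spanned a wide range of levels. Gzmb, Gzma, Prf1 and Gzmc were the 4 highest in every condition, Gzmk and Gzmf followed, and Gzmm, Gzmd, Gzmg and Gzme had group means under 10 CPM throughout. The order at the top changed with the condition, as the plot of levels by library shows. In non-treated GFP+ cells Gzmb led at 192 ± 36.8 CPM (SD, n = 3), apart from Prf1 at 125 ± 10.2 CPM, while Gzmc at 88.5 ± 24.9 and Gzma at 87.2 ± 32.6 overlapped. In non-treated GFP− cells Gzma (328 ± 52.1 CPM) and Gzmb (296 ± 42.0 CPM) overlapped at the top, above Prf1 (164 ± 14.1 CPM), which overlapped with Gzmc (147 ± 28.2 CPM). In GFP+ cells after anti-PD-L1 Prf1 (406 ± 147 CPM), Gzmb (329 ± 188 CPM) and Gzma (242 ± 63.9 CPM) each overlapped with the next. In GFP− cells after anti-PD-L1 Gzma (877 ± 415 CPM) and Gzmb (495 ± 57.9 CPM) overlapped, and Prf1 (386 ± 35.7 CPM) lay below Gzmb in all libraries. Within each condition Gzmd, Gzme, Gzmg and Gzmm overlapped with the next of these 4 in the order.

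**Figure D1:**
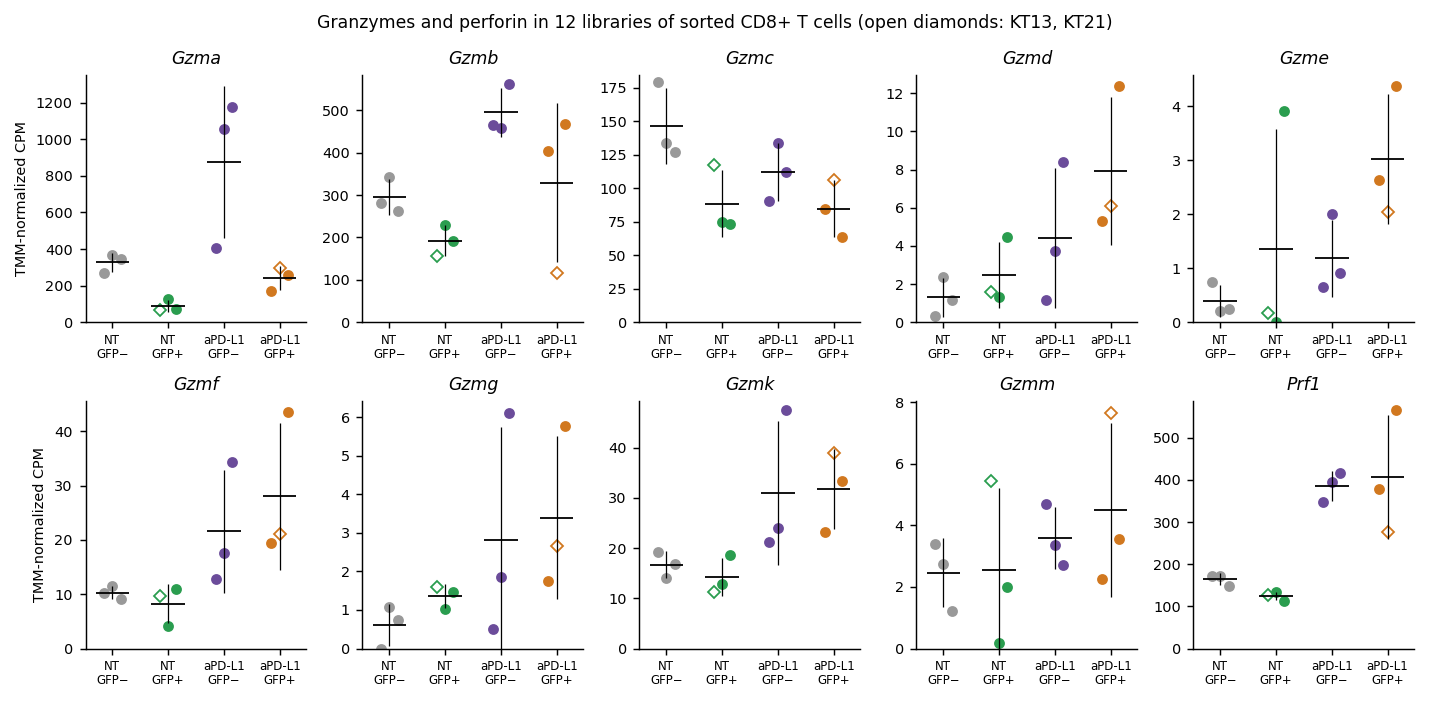
TMM-normalized CPM (y axis, linear, starting at 0) of the 10 genes in each of the 12 libraries, grouped by condition on the x axis (NT, non-treated; aPD-L1, anti-PD-L1). Points are libraries, open diamonds are KT13 and KT21, horizontal lines are means and vertical lines are the SD of 3 libraries; Gzma is lower in GFP+ cells and higher after treatment, Prf1 is higher after treatment, and Gzmc is the one gene whose highest group is non-treated GFP− cells.

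Gzma was the member that differed with both GFP and anti-PD-L1. Its level was 66.6, 125 and 70.2 CPM in the non-treated GFP+ libraries KT13, KT15 and KT17, and 269, 369 and 346 CPM in the non-treated GFP− libraries KT14, KT16 and KT18. After anti-PD-L1 it was 170.4, 294 and 261 CPM in the GFP+ libraries KT19, KT21 and KT23, and 404, 1055 and 1174 CPM in the GFP− libraries KT20, KT22 and KT24. Within each treatment every GFP+ library lay below every GFP− library, and within each GFP class every treated library lay above every non-treated one. The treated GFP+ libraries (170.4 to 294 CPM) overlapped with the non-treated GFP− libraries (269 to 369 CPM). Averaged over both treatments Gzma was 3.69-fold lower in GFP+ cells (log2 fold change −1.88, SE 0.25, adjusted p = 0.00511 by the edgeR quasi-likelihood test, Benjamini-Hochberg adjusted over all tested genes), and without KT13 and KT21 it was 3.70-fold lower (adjusted p = 1.88e-05). The call held without each library in turn, with log2 fold changes of −2.06 to −1.74. Averaged over GFP+ and GFP− cells it was 2.72-fold higher after anti-PD-L1 (log2 fold change 1.45, SE 0.25, adjusted p = 0.02), and 2.44-fold higher without KT13 and KT21 (adjusted p = 0.000679). That call was lost without KT14, KT17, KT18, KT22, KT23 or KT24, each left out alone, where the log2 fold change stayed between 1.32 and 1.62 and the adjusted p reached 0.0942. With robust estimation in edgeR the adjusted p of Gzma was 0.0622.

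Prf1 was called with anti-PD-L1 and not with GFP. It was at 127, 133 and 113 CPM in non-treated GFP+ libraries and at 172, 173 and 148 CPM in non-treated GFP− libraries. After treatment it was at 379, 275 and 565 CPM in GFP+ and at 347, 396 and 417 CPM in GFP− libraries. The lowest treated library, KT21, was above the highest non-treated one. The averaged increase was 2.77-fold (log2 fold change 1.47, SE 0.15, adjusted p = 0.0021 by edgeR) and 3-fold without KT13 and KT21 (adjusted p = 3.34e-09), and it was called without each library in turn. In GFP+ cells alone Prf1 rose 3.27-fold (adjusted p = 0.0121), a call lost without KT15 or KT17 (highest adjusted p = 0.176) and in a fit of the 2 GFP+ groups alone (adjusted p = 0.752 for Prf1). In GFP− cells the 2.35-fold difference missed the threshold with 12 libraries (adjusted p = 0.0709) and passed it without KT13 and KT21 (adjusted p = 3.48e-05), and for Prf1 also without KT13, KT21 or KT23 alone (adjusted p = 0.0323, 0.0152 and 0.0462). GFP made a small averaged difference to Prf1 (log2 fold change −0.16, SE 0.15, adjusted p = 0.812), although in non-treated mice the 3 GFP+ libraries lay below the 3 GFP− libraries (log2 fold change −0.40, adjusted p = 0.863).

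The call of Gzmb with anti-PD-L1 in the main edgeR fit depended on 1 library. Its level was 156, 229 and 191 CPM in the GFP+ and 282, 343 and 263 CPM in non-treated GFP− libraries. After anti-PD-L1 it was 405 CPM in KT19, 468 CPM in KT23 and 115 CPM in KT21 among the GFP+ libraries, and 465, 459 and 562 CPM among the GFP− libraries. KT21, which had the highest Gzma of its group, had the lowest Gzmb of all 12 libraries. With all libraries Gzmb was 1.69-fold higher after treatment (log2 fold change 0.76, SE 0.25) and was not called (adjusted p = 0.374 by edgeR). On the same libraries limma voom called it higher, and so did edgeR with no filter beyond 1 count. Without KT21 alone the log2 fold change was 0.97 and was called (adjusted p = 0.000848), as was Gzmb in GFP+ cells (log2 fold change 1.19, adjusted p = 0.0268), and without KT13 and KT21 it was 0.90 (SE 0.095, adjusted p = 1.82e-06), a 1.87-fold increase that was also called in GFP+ (2.08-fold, adjusted p = 0.000683) and GFP− cells (1.68-fold, adjusted p = 0.00114). With GFP the averaged log2 fold change was −0.61 (SE 0.25, adjusted p = 0.55), and −0.34 (SE 0.094, adjusted p = 0.102) without the pair. Lower Gzmb in GFP+ cells was called with no filter beyond 1 count and by DESeq2 without the pair. GFP+ libraries lay below GFP− libraries in non-treated mice and overlapped with them after treatment.

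Gzmc was the only one of the 10 genes whose averaged log2 fold change with anti-PD-L1 was negative. It was at 117, 74.8 and 73.5 CPM in non-treated GFP+ and at 179, 134 and 127 CPM in non-treated GFP− libraries, and at 84.2, 106 and 63.5 CPM and at 90.5, 134 and 112 CPM after treatment. GFP+ and GFP− libraries did not overlap in non-treated mice and overlapped after treatment. The averaged GFP difference was −0.57 (SE 0.17, adjusted p = 0.32 by edgeR) with 12 libraries. On these libraries limma voom called it, and so did edgeR with no filter beyond 1 count. Without KT13 and KT21 it was −0.79 (SE 0.12, adjusted p = 0.000769), or 1.73-fold lower in GFP+ cells, and −0.98 (adjusted p = 0.00942) in non-treated mice alone. The treatment difference was small in either set of libraries, −0.23 (SE 0.17, adjusted p = 0.873) and −0.19 (SE 0.12, adjusted p = 0.591).

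Gzmf and Gzmk had low levels that were higher after anti-PD-L1 in both sets of libraries. The main edgeR fit of 12 libraries called neither, and that without KT13 and KT21 called both. With 12 libraries DESeq2 also called both, limma voom Gzmf and robust edgeR Gzmk. Gzmf was at 9.61, 4.18 and 11 CPM in non-treated GFP+, 10.2, 11.5 and 9.13 CPM in non-treated GFP−, 19.5, 21.0 and 43.6 CPM in treated GFP+ and 12.8, 17.6 and 34.4 CPM in treated GFP− libraries. Every treated library exceeded every non-treated one. The averaged Gzmf difference was 2.68-fold (log2 fold change 1.42, SE 0.30, adjusted p = 0.0651 by edgeR), called without KT21 alone (lowest adjusted p = 0.027) and without KT13 and KT21 (2.96-fold, adjusted p = 0.00166). Gzmk, whose protein shares the trypsin-like activity of granzyme A, was at 11.3, 12.9 and 18.6 CPM in non-treated GFP+, 19.3, 14.0 and 16.8 CPM in non-treated GFP−, 23.1, 38.9 and 33.3 CPM in treated GFP+ and 21.3, 24.1 and 47.5 CPM in treated GFP− libraries. Here too the treated libraries all lay above the non-treated ones, by 2.03-fold on average (adjusted p = 0.0712), and by 1.82-fold without KT13 and KT21 (adjusted p = 0.0221). With GFP the averaged log2 fold changes were near 0, at 0.03 (SE 0.29) for Gzmf and −0.09 (SE 0.22) for Gzmk. Its neighbor Gzma had the largest GFP difference of the 10 genes toward GFP− cells, and the difference between these genes was not tested.

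The remaining 4 genes were not called by the main edgeR fit of 12 libraries or by that without KT13 and KT21. With no filter beyond 1 count Gzmd was called in the averaged treatment comparison (log2 fold change 1.71, adjusted p = 0.00076). Gzmd ranged from 0.34 to 12.4 CPM, Gzme from 0 to 4.37, Gzmg from 0 to 6.12 and Gzmm from 0.19 to 7.66 CPM. Gzme was at 0 in KT15 and Gzmg in KT14. The averaged treatment difference of Gzmd was 1.71 (SE 0.53, adjusted p = 0.307 by edgeR), that of Gzmg 1.76 (SE 0.70, adjusted p = 0.541) and that of Gzme 1.35 (SE 0.84, adjusted p = 0.818). With GFP the 3 genes had positive log2 fold changes of 0.88 (SE 0.52), 0.71 (SE 0.68) and 1.56 (SE 0.84). The Gzme difference in non-treated mice rested on KT17, the 1 non-treated GFP+ library with 3.92 CPM, and the averaged value turned to −0.43 without it. Gzmm differed by 0.69 (SE 0.55) with treatment, and its GFP difference of 0.17 (SE 0.55) turned to −0.74 (SE 0.50) without KT13 and KT21, which held the highest Gzmm of their groups.

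**Figure D2:**
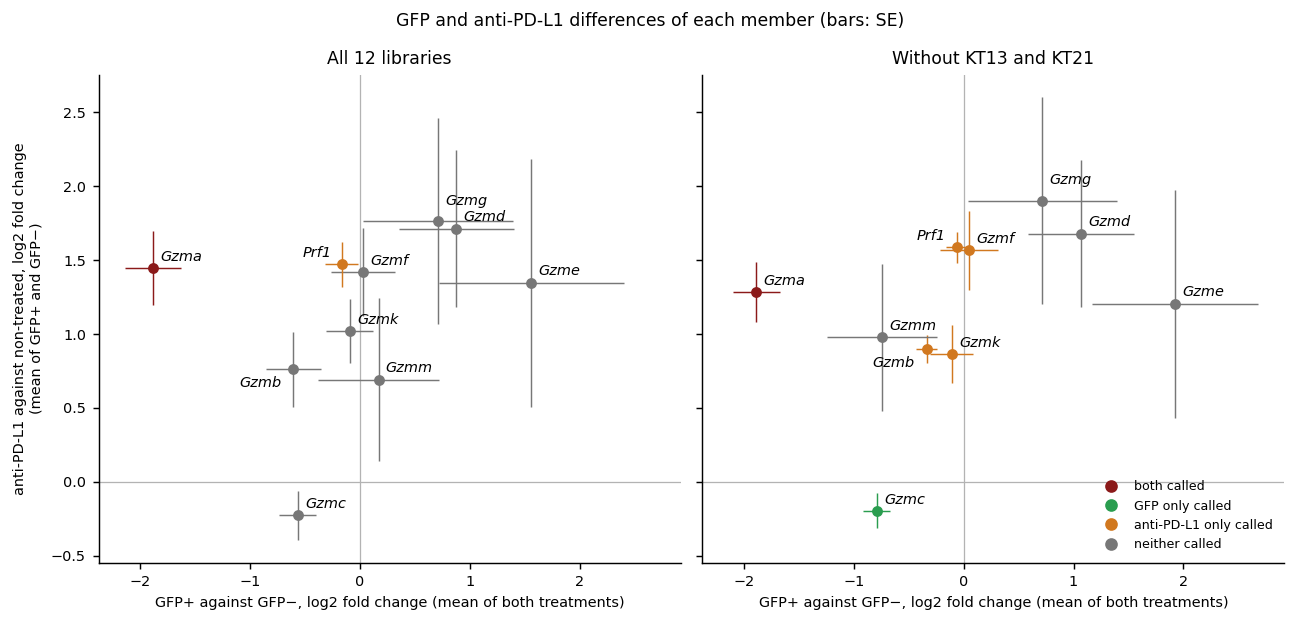
Log2 fold change of each gene between GFP+ and GFP− cells, averaged over both treatments (x axis), against that between anti-PD-L1 and non-treated cells, averaged over GFP+ and GFP− (y axis), with bars for the SE. With all 12 libraries (left) Gzma was called on both axes and Prf1 on the treatment axis; without KT13 and KT21 (right) Gzmb, Gzmf and Gzmk joined Prf1 and Gzmc was called for GFP.

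Counted over the 10 genes, the averaged treatment comparison had 2 members called higher with 12 libraries (Gzma and Prf1), where 0.395% of all tested genes were called in either direction, and 5 called higher without KT13 and KT21 (Gzma, Gzmb, Gzmf, Gzmk and Prf1), against 1.36% of genes. The log2 fold change was positive in 9 of 10 members, and their median was 1.38 against −0.0055 for all genes. The averaged GFP comparison had 1 member called lower (Gzma; background 0.31%), and 2 without the pair (Gzma and Gzmc; 1.08%). Here 5 members were positive and 5 negative, and the median was −0.032 against 0.0038 for all genes. Within GFP+ cells treatment gave 1 call with 12 libraries (Prf1; 0.0141%) and 3 without the pair (Gzmb, Gzmf and Prf1; 0.563%). Within GFP− cells edgeR gave 0 calls with 12 libraries (background 0.0%) and 3 without the pair (Gzma, Gzmb and Prf1, background 0.373%). With 12 libraries 6 members had an unadjusted p under 0.05 by edgeR, among 487 of 14173 genes. DESeq2 called 2 members among 33 genes and limma voom 1 among 34. For GFP in non-treated mice edgeR gave 0 calls (0.00706%), and 2 calls without the pair (Gzma and Gzmc, background 0.339%). With 12 libraries 2 members had an unadjusted p under 0.05 by edgeR, among 857 of 14173 genes. DESeq2 called 1 member among 53 genes and limma voom 0 among 12. For GFP after anti-PD-L1 edgeR gave 0 calls (0.0282%), and 1 call without the pair (Gzma, background 0.17%). With 12 libraries 1 member had an unadjusted p under 0.05 by edgeR, among 578 of 14173 genes. DESeq2 called 1 member among 47 genes and limma voom 1 among 20. These comparisons share groups of libraries, so a member called in several of them is not seen independently in each.

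Ranges that did not overlap were counted in the same way. In GFP+ cells 6 members were higher in all treated than in all non-treated libraries (Gzma, Gzmd, Gzmf, Gzmg, Gzmk and Prf1; 10.3% of all genes separated in either direction), and in GFP− cells 5 were (Gzma, Gzmb, Gzmf, Gzmk and Prf1; 12.3%). Gzma, Gzmf, Gzmk and Prf1 separated in both, against 1.59% of all genes. For GFP, 4 members were lower in all GFP+ libraries of non-treated mice (Gzma, Gzmb, Gzmc and Prf1; 12.8%). After treatment Gzma was lower and Gzme higher (10.6%), and Gzma alone separated under both treatments, against 1.84% of all genes.

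Whether the response to anti-PD-L1 differed between GFP+ and GFP− cells was asked with the interaction of GFP and treatment. No gene of the whole table was called with 12 libraries or without KT13 and KT21 (background 0.0% for each), and DESeq2 and limma voom also called none. With no filter beyond 1 count 10 genes were called, of which 0 were members. By unadjusted p under 0.05, 295 of 14173 genes but 0 members passed in the edgeR fit of 12 libraries. In DESeq2 374 genes and 0 members passed, and in limma voom 570 genes and 1 member. Prf1 had an interaction of 0.47 (SE 0.30) and of 0.70 (SE 0.20) without the pair, Gzmf 0.69 (SE 0.59) and 0.99 (SE 0.53), and Gzma 0.05 (SE 0.49) and −0.28 (SE 0.40). The unadjusted p of Prf1 by edgeR without the pair was 0.0022 (adjusted p = 0.9998). There 1 member was under 0.05, among 632 of 14747 genes. A difference between GFP+ and GFP− cells in the treatment response of these genes was therefore not called, which does not show that the responses were alike.

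The GFP and treatment differences along the Gzmb cluster are given in gene order, and no trend along it was tested. In gene order from Gzmb, the starts of Gzmc, Gzmf, Gzmg, Gzmd and Gzme lie 27.6, 50.8, 102.7, 129.7 and 141.6 kb away. The averaged GFP log2 fold change was −0.61 at Gzmb, −0.57 at Gzmc and 0.03 at Gzmf. At the 3 distal genes it was 0.71 (SE 0.68), 0.88 (SE 0.52) and 1.56 (SE 0.84). The value of Gzme turned to −0.43 without KT17, and reads of Gzmd, Gzme, Gzmf and Gzmg are uncertain as to their gene. The main edgeR fit called no gene of the cluster in either averaged comparison. The treatment log2 fold change was 0.76 at Gzmb, −0.23 at Gzmc and 1.42 at Gzmf. Gzmc thus lay between neighbors with positive values, while Gzmg, Gzmd and Gzme had 1.76, 1.71 and 1.35. Among the other serine protease genes of the region only Gzmn passed the filter, at up to 4 CPM. Mcpt1 reached 3.18 CPM in KT21 and Mcpt2 2.49 CPM in KT22, and Ctsg and Mcpt9 were at 0 in all libraries.

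**Figure D3:**
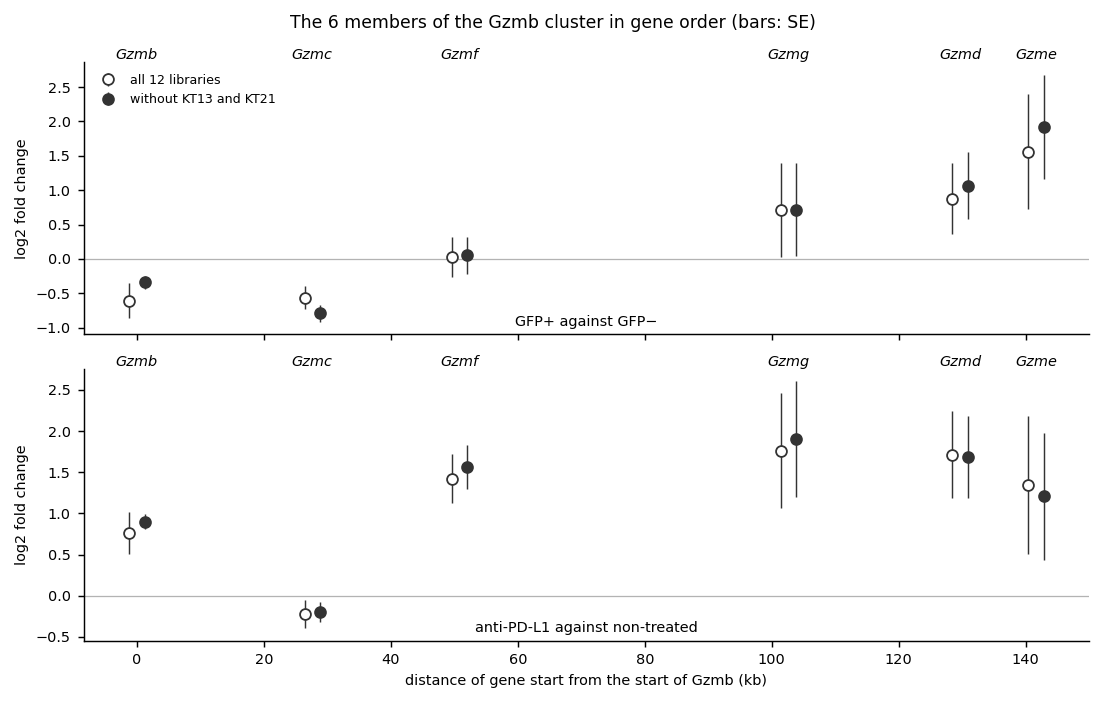
Averaged log2 fold change (y axis) with GFP (top) and with anti-PD-L1 (bottom) of the 6 members on chromosome 14, plotted by the distance of the gene start from that of Gzmb in kb (x axis). Open points are all 12 libraries, filled points leave out KT13 and KT21, and bars are the SE; Gzmc is the one gene below 0 in the lower panel.

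The 5 genes beyond Gzmb share a promoter stretch, shown here for the letters of the cAMP response element. RefSeq promoters (GRCm38.p6, 250 bases before to 50 after each start) were matched for all 10 members. The 60 bases below lie on the minus strand and are read 5′ to 3′ along the gene, with the 8 bases aligned to the cAMP response element, TGACGTCA, in capitals.
Gzmc (chr14:56234681-56234740): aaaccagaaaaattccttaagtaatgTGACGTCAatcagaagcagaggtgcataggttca
Gzmf (chr14:56211456-56211515): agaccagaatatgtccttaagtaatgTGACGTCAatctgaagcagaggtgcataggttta
Gzmg (chr14:56159623-56159682): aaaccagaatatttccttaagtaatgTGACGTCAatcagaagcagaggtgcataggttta
Gzmd (chr14:56132621-56132680): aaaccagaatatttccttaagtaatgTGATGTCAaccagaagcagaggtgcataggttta
Gzme (chr14:56120654-56120713): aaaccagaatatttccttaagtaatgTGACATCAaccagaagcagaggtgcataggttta
The letters TGACGTCA, which are their own reverse complement, stood at −57 in Gzmc, −82 in Gzmf and −77 in Gzmg, counted from the start site, and in 1.79% of all 32851 promoters. Counted from 1 at the first base of the element, Gzmd carried C4T and Gzme G5A. The stretch of Gzmc was 90.0% identical to that of Gzmf, 95.0% to that of Gzmg and 91.7% to those of Gzmd and Gzme. Gzmc and Gzmf, which both hold the element, had averaged treatment log2 fold changes of −0.23 (SE 0.17) and 1.42 (SE 0.30). Neither was called by the main edgeR fit of 12 libraries, and a part of the element in these values was not tested. A match is a description of letters and not a measured site.

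The upstream stretches of Gzma, Gzmb and Prf1 are shown because these are the most highly expressed members of the 3 chromosomes. For Gzma the 120 bases before the start (chr13:113100982-113101101, minus strand) hold the reverse complement of the RUNX letters TGTGGTT, in capitals, and those of Gzmb (chr14:56262335-56262454, minus strand) hold AP-1 letters TGANTCA and then RUNX letters.
Gzma: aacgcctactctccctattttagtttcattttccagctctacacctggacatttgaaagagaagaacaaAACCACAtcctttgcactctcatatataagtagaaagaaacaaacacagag
Gzmb: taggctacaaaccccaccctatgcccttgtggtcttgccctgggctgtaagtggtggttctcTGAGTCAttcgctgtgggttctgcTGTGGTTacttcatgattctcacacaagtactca
Prf1 (chr10:61297716-61297835, plus strand): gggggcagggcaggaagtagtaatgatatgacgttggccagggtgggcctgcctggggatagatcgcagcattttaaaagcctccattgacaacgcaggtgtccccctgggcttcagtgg
Searched on both strands of the 300 bases, RUNX letters were in 5.27% of all promoters and in those of Gzma, Gzmb, Gzmc, Gzmd, Gzme, Gzmf and Gzmg, and AP-1 letters in 7.81% and in that of Gzmb. STAT letters TTCNNNGAA, in 8.3% of all promoters, were in those of Gzmb and Gzmm, and T-box letters GGTGTGA, in 3.98%, in those of Gzmk and Gzmm. Gzmm has 2 promoters in this set. Its STAT letters were in the first (chr10:79688770-79689069) and its T-box letters in the second (chr10:79693576-79693875). None of the 5 motifs was in that of Prf1, and in no member did 2 matches overlap.

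Summed over the 10 genes, the level was higher after treatment and lower in GFP+ cells, and the shares of the genes differed. These sums and shares are given with no test. The sum was 522 ± 51.5 CPM (SD, n = 3) in GFP+ and 966 ± 73.7 CPM in GFP− cells of non-treated mice, and 1140 ± 299 and 1940 ± 528 CPM after treatment. GFP+ and GFP− libraries did not overlap without treatment and overlapped with it. Prf1 made up 23.9% ± 1.5 of it in non-treated GFP+ and 35.0% ± 3.51 in treated GFP+ cells, and 17.0% ± 1.19 and 20.8% ± 4.41 in the GFP− groups. Gzma made up 16.4% ± 4.44 and 22.4% ± 9.93 in GFP+ and 33.9% ± 4.66 and 43.3% ± 11.5 in GFP− cells. Gzmc made up 17.2% ± 5.67 and 8.09% ± 3.94 in GFP+ and 15.2% ± 3.4 and 5.94% ± 1.06 in GFP− cells. The ratio of Gzma to Gzmb was 0.367 to 0.544 in non-treated GFP+ and 0.956 to 1.32 in non-treated GFP− libraries. After treatment it was 0.869 to 2.30 in GFP− libraries and 0.421 and 0.557 in KT19 and KT23, while KT21 stood at 2.55.

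**Figure D4:**
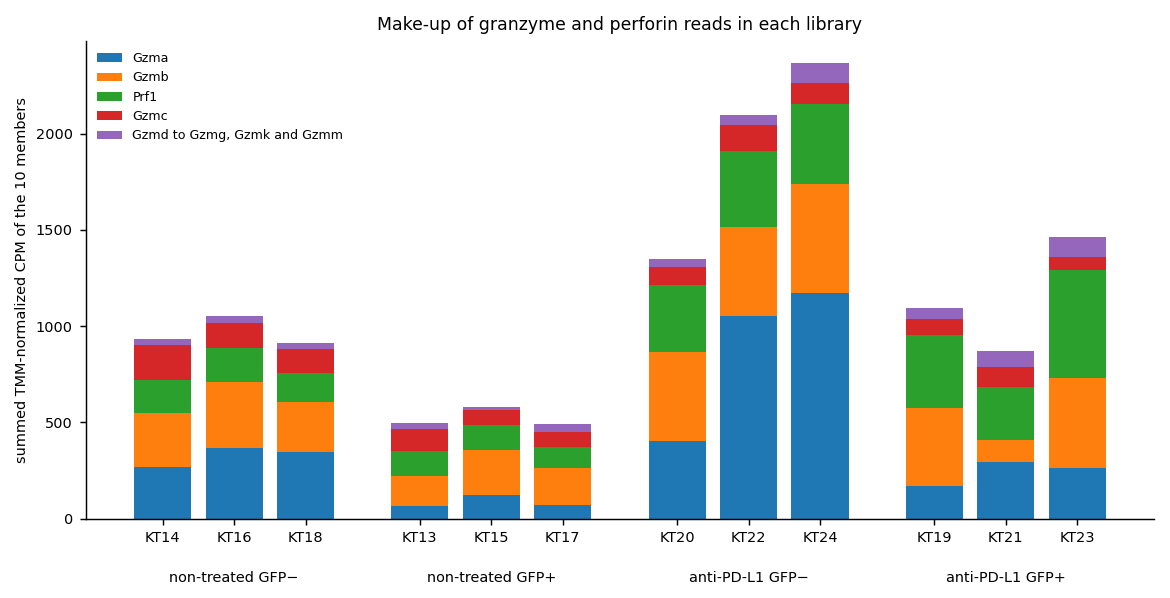
Summed TMM-normalized CPM of the 10 genes in each library (y axis, starting at 0), divided into Gzma, Gzmb, Prf1, Gzmc and the other 6 genes together, with libraries grouped by condition on the x axis. The non-treated GFP+ libraries are lowest (489 to 582 CPM) and the treated GFP− libraries highest (1347 to 2365 CPM), and KT21 shows little Gzmb beside its Gzma.

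The genes whose pattern over the 12 libraries was most like that of a member were named by Pearson's r of log2(CPM + 0.5) among 7801 genes with a mean of at least 10 CPM, which describes 12 libraries sharing the same 4 conditions and the same depths. For Gzma they were S100a4 (r = 0.955), Ly6a (0.934) and Ifitm1 (0.929). For Prf1 they were Havcr2 (0.960), which encodes the inhibitory receptor TIM-3, Ccl3 (0.931), which encodes a chemokine of activated T cells, and 2310031A07Rik (0.919). For Gzmb they were Cd3g (0.972), Rac1 (0.968) and Csf1 (0.957), and KT21 was low in Gzmb. For Gzmc the nearest was Emp3 (0.891), for Gzmf 2310031A07Rik (0.920) and for Gzmk Gimap1 (0.917). Between members, r of Gzmb and Prf1 was 0.677 over 12 libraries and 0.936 without KT13 and KT21.

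Lists of the machinery that loads, releases and restrains these proteins were set beside the members. Of all tested genes 0.395% were called with treatment and 0.31% with GFP, so 0 calls in lists of this length are near the background. Without KT13 and KT21 these shares were 1.36% and 1.08%. Calls of list genes in that fit are given as values of single genes. The same shares apply to the transcription factors below. Of 12 genes of granule maturation and cargo none was called in either averaged comparison with 12 libraries, and their median log2 fold change with anti-PD-L1 was 0.12, as was that of the exocytosis genes, while that of the inhibitors was 0.34. With GFP the medians of the 3 lists were 0.021, 0.018 and 0.24. Without KT13 and KT21 Nkg7, a granule membrane protein that cytotoxic cells need for degranulation, rose 1.32-fold (adjusted p = 0.00243 by edgeR) and Cd63, a membrane protein of granules and lysosomes, fell 2-fold (adjusted p = 0.0189). Igf2r, a mannose 6-phosphate receptor that can sort granzymes to granules, was 1.5-fold higher in GFP+ cells without the pair (adjusted p = 0.0348) and 1.1-fold higher with 12 libraries (adjusted p = 0.949), and stood at 8.01 and 7.96 CPM in KT13 and KT21 against 36 to 50 in the other GFP+ libraries. Of the 14 tested exocytosis genes none was called with 12 libraries. Rab27a, a small GTPase of granule docking, and Lyst, a regulator of granule size, rose 1.59-fold and 1.51-fold with treatment without the pair (adjusted p = 0.0224 and 0.0335). Of the 5 tested inhibitors none was called with 12 libraries. Serpinb6a and Serpinb6b rose 1.45-fold and 1.6-fold without the pair (adjusted p = 0.0271 and 0.0208), and Serpinb9, which inhibits granzyme B, was not called (log2 fold change 0.34, SE 0.16, adjusted p = 0.666).

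Among 14 transcription factors of cytotoxic genes, Prdm1, which encodes Blimp-1, was higher after anti-PD-L1 in both sets of libraries. It was at 9.35 to 16.1 CPM in non-treated GFP+, 12.6 to 23.7 in non-treated GFP−, 22.1 to 40.3 in treated GFP+ and 30.2 to 45.1 CPM in treated GFP− libraries, which is 2.06-fold higher on average (adjusted p = 0.0485 by edgeR with 12 libraries and 0.000879 without KT13 and KT21). Id2, which supports effector differentiation, had a log2 fold change of 0.50 with treatment and −0.60 with GFP (adjusted p = 0.395 and 0.275). Without the pair it rose with treatment (0.65, adjusted p = 0.00487) and was lower in GFP+ cells (−0.54, adjusted p = 0.0307). Tbx21, Eomes and Runx3, the textbook activators of granzyme and perforin genes, differed by 0.23, 0.01 and −0.07 with treatment and by 0.03, 0.11 and 0.01 with GFP, and none was called.

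The CD8 T cell markers summed to more after treatment within each GFP class, so the members were also set against them, a choice made after seeing the data. Their summed level differed by 0.27 with treatment and by −0.13 with GFP on the log2 scale. Relative to that sum, on the log2(CPM + 0.5) scale and with no test, the treatment difference was 1.12 for Gzma, 1.17 for Prf1, 1.04 for Gzmf, 0.69 for Gzmk and 0.38 for Gzmb, and that of Gzmc was −0.50. The GFP difference of Gzma was −1.72 on this scale and that of Gzmc −0.45.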

How the data were processed

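RNA of the sorted cells was made into QuantSeq 3′ mRNA libraries. Per the study's methods Cutadapt 2.1 trimmed the reads, HISAT2 placed them on mm10 and featureCounts of Rsubread 2.10.5 gave the gene counts, while the submitters' processing notes list cutadapt 1.7 and Subread 1.6.4. Strand setting, treatment of reads that match several genes and annotation release were not given in the sources used here. The authors deposited 1 table of raw counts for 52636 gene identifiers in 12 libraries, of which 52403 were paired with a symbol. Each library is a pool of 3 mice, and p-values measure the spread between libraries, treated as independent. Whether GFP+ and GFP− libraries share pools is not stated in the labels.

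Counts were fitted in 1 model over the 4 conditions with edgeR 4.0.16 in R 4.3.3 (filterByExpr, TMM factors, quasi-likelihood F test, Benjamini-Hochberg adjustment over all tested genes, threshold 0.05). A gene past the threshold is said to be called. The SE is the log2 fold change divided by the square root of F. Within-group comparisons, 2 averaged ones and the interaction gave 7 comparisons. Levels are CPM on TMM-scaled library sizes. The fit was tested on simulated data for GFP in non-treated mice, with 200 of 14173 genes changed by 1 on the log2 scale. The changed genes had a mean of at least 10 CPM, no library stood apart, and 1 fixed spread was used for all genes. There edgeR recovered 198 with 7 false calls. In the measured libraries this comparison gave 1 call of 14173 genes. How many true changes the fit recovers in the measured libraries was not tested. DESeq2 1.42.0, limma 3.58.1 voom with library quality weights, other scalings and filters, and fits without libraries were alternatives. The labels give no batch. The legends of the study count 3 GFP− but 2 GFP+ samples in the GFP comparison and name none. The set without KT13 and KT21 has these numbers under each treatment, while the full set has 3 GFP+ libraries. Which GFP+ library the study left out is not known. The members, the lists of other genes and the set of 10 libraries without KT13 and KT21 were chosen with earlier results of these data known. Named genes were all 10 members, Adora2a, members of the lists that were called or did not overlap (up to 4 for each list and comparison with the smallest p), and the 3 genes with the highest r for each member. Serpinb9, Tbx21, Eomes and Runx3 were named for their known role after their values were seen.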

Additional observations from a re-analysis of the deposited data

How the results depend on the processing

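No paired analysis was made, because the libraries carry running codes that no 2 groups share. The codes of GFP+ and GFP− libraries alternate, but the labels do not say whether any of them came from the same mice. All libraries were treated as independent, and whether shared pools would change the GFP comparisons was not tested. Upper-quartile scaling and DESeq2 size factors in the edgeR fit left every member count as it was, and so did a minimum of 10 counts in every library, which dropped Gzmd, Gzme, Gzmg and Gzmm. With 12 libraries the counts of called members for GFP in non-treated mice, GFP after anti-PD-L1, anti-PD-L1 in GFP+ cells, anti-PD-L1 in GFP− cells, and averaged GFP and averaged anti-PD-L1 were 0, 0, 1, 0, 1 and 2. They became 1, 1, 3, 2, 1 and 4 with DESeq2, 0, 1, 1, 1, 2 and 4 with limma voom, 0, 0, 1, 1, 1 and 2 with robust edgeR, 1, 1, 5, 2, 3 and 6 with no filter beyond 1 count, 2, 1, 3, 3, 2 and 5 without KT13 and KT21, and 3, 1, 2, 2, 3 and 5 with DESeq2 without them. Calls over all genes changed as well. In the same order they were 1, 4, 2, 0, 44 and 56 of 14173 genes in the main fit. DESeq2 gave 53, 47, 93, 33, 158 and 181, limma voom 12, 20, 52, 34, 126 and 132, and robust edgeR 1, 10, 2, 23, 60 and 64. With no filter beyond 1 count they were 78, 49, 123, 60, 204 and 223 of 26418. Without KT13 and KT21 they were 50, 25, 83, 55, 159 and 201 of 14747, and 131, 64, 142, 91, 256 and 301 with DESeq2. Fits of only the 2 groups compared gave 0 members for GFP in non-treated mice, 0 for GFP after treatment, 0 for treatment in GFP+ cells and 3 for treatment in GFP− cells. Over all genes these fits called 1, 0, 0 and 51. Robust edgeR called Gzmk and Prf1, and not Gzma, in the averaged treatment comparison. Leaving out each library in turn gave 1 to 4 members for averaged treatment, 0 to 2 for treatment in GFP+ cells and 0 to 1 in GFP− cells, and the same count as before for the other comparisons. Calls over all genes ran from 27 to 90, 0 to 34 and 0 to 28 in these treatment comparisons. The libraries are named beside Gzma, Prf1, Gzmb and Gzmf in the results.

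Over all members, comparisons and alternatives 1365 single values kept their direction and side of the threshold, 62 passed it newly, 10 lost it and 64 turned sign. Signs turned only for values that were not called. Without KT13 and KT21, by edgeR and DESeq2, these were the interaction of Gzma (−0.28 and −0.29), that of Gzmk (−0.049 and −0.055), GFP after treatment for Gzmk (−0.13 and −0.14), and for Gzmm GFP in non-treated mice (−1.17 and −1.18), after treatment (both −0.31) and averaged (−0.74 and −0.75). With limma voom these were the interactions of Gzmd (0.19) and Gzme (0.71) and, for Gzmm, −1.05, −0.20 and −0.62. Against the CD8 T cell markers, chosen after seeing the data, the averaged GFP difference of Gzmk was 0.061. Without each library in turn the interaction ran from −0.28 to 0.40 for Gzma, −0.30 to 0.44 for Gzmb, −0.86 to 0.78 for Gzmd, −1.24 to 3.54 for Gzme, −1.60 to 0.36 for Gzmg and −0.33 to 1.49 for Gzmm. Treatment in GFP+ cells ran from −0.26 to 0.19 for Gzmc. Averaged GFP ran from −0.43 to 1.96 for Gzme, −0.19 to 0.29 for Gzmf, −0.21 to 0.14 for Gzmk and −0.43 to 0.45 for Gzmm. GFP in non-treated mice ran from −2.20 to 2.58 for Gzme, −0.59 to 0.0059 for Gzmf and −1.17 to 0.58 for Gzmm. GFP after treatment ran from −0.066 to 0.89 for Gzmf, −0.33 to 1.52 for Gzmg, −0.15 to 0.50 for Gzmk, −0.31 to 0.64 for Gzmm and −0.22 to 0.29 for Prf1. The cause of these changes was not tested. Gzmd, Gzme, Gzmg and Gzmm have few counts, which limits their precision.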
